A study of Mus musculus with 6 samples.

Results

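Atoh1 and 8 further proneural and neuronal basic helix-loop-helix (bHLH) transcription factors were examined in cells of the mouse Atoh1 lineage. The factors were Atoh1, Olig3, Neurog1, Neurog2, Nhlh1, Nhlh2, Neurod1, Neurod2 and Neurod6. They were chosen by name, with earlier results of these data known. Every probe set that the platform annotation assigns to 1 of these symbols alone was taken. This gave 13 probe sets of 45037 and 9 genes of 18193. The late group held 3 samples of cells labelled with tamoxifen at E13.5, and the early group held 3 samples labelled at E10.5. In both groups Swiss Webster embryos carried Atoh1-CreER, from sires, and the RCE reporter, from homozygous dams, so that tamoxifen (4 mg per 35 g of dam, by gavage) switched on EGFP in cells with Atoh1-driven CreER activity. All embryos were collected at E14.5, the rhombomere 1 and isthmus region was dissected and dissociated, EGFP-positive cells were sorted, and their total RNA was hybridised to Affymetrix mouse genome arrays. CreER marks cells by Atoh1 activity and leaves the mark in their progeny, and the day of labelling and the time from labelling to collection differed together. Neither litters nor the number of pooled embryos are stated for any sample, so the p-values below rest on the variation among these 6 samples, part of which may be technical.

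Proneural bHLH factors bind DNA at E-boxes as dimers with E proteins such as Tcf3, Tcf4 and Tcf12, and drive progenitors towards a neuronal fate. Atoh1 is the defining factor of the rhombic lip of the hindbrain, where it is needed for cerebellar granule cell precursors and for many brainstem and deep cerebellar neurons. Neurog1 and Neurog2 act in other progenitor domains, Olig3 patterns the dorsal hindbrain progenitors that include the rhombic lip, and the Nhlh and Neurod families act later, as cells leave the cycle and mature.

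Signals are MAS5 signals in arbitrary units. Array medians lay between 97.7 and 112 units. Rank correlations over all probe sets (Spearman) were 0.938 to 0.945 among late arrays and 0.874 to 0.893 among early arrays, so early arrays spread more. The 3′ to 5′ signal ratio of the Actb control, a sign of RNA quality, was 12.9 to 16.1 in late and 17.4 to 26.2 in early arrays, and that of Gapdh, which overlapped, 9.47 to 12.1 in late and 10.6 to 13.2 in early arrays. On all 6 arrays the 3′ signal of both controls was thus at least 9.47 times the 5′ signal, a strong 3′ bias in both groups. Late replicate 3 had a signal of 14.1 units for the Y-linked Eif2s3y, against 826 units or more in the other 5 arrays. Early replicate 3 had 166 units of Xist, against 8141 units or more in the others, so the sex of the embryos behind these 2 arrays differed from that of the others, which held both sexes. Markers of other cell types differed between the groups as well. Summed signals of 7 markers of GABAergic cerebellar cells were 828 to 1133 units in late and 2238 to 3549 units in early arrays, and 3 of 5 tested were higher in early. Calb1 led this sum, at 124 units in late and 1320 units in early arrays. Lhx1 lay the other way, at 412 units in late and 242 units in early arrays, and did not pass (limma adjusted p = 0.243). This sum therefore does not speak for all 7 markers. Summed signals of 5 markers of the oligodendrocyte lineage were 864 to 1109.9 units in late and 2708 to 3143 units in early arrays, with 1 of 4 tested higher in late and 2 higher in early. Most of the early sum was Olig1, which averaged 164 units in late and 2149 units in early arrays. Pdgfra went the other way, at 551 units in late and 175 units in early arrays. Sox10 averaged 117 units in late and 130 units in early arrays and did not pass. Summed signals of 5 radial glia and astroglia markers were 4377 to 6741 units in late and 8559 to 9656 units in early arrays, with 1 of 3 tested higher in each group. Most of this sum was Fabp7, which averaged 4638 units in late and 8432 units in early arrays. Slc1a3 went the other way, at 633 units in late and 337 units in early arrays, so the sum does not speak for all 5 markers. Endothelial markers summed to 152 to 973 units in late and 272 to 1763 units in early arrays, and mesenchymal markers to 179.7 to 567 and 306 to 2029 units in late and early arrays, with none past the threshold. Microglial markers summed to 163 to 282 units in late and 354 to 852 units in early arrays, where Csf1r was higher in early while Aif1 and C1qa lay below the array median in all 6 arrays. All 3 erythroid markers measured lay below the median in every array. The part of other cell types, RNA quality and sex in the results below was not tested, except that calls of the bHLH factors lost without late replicate 3 and early replicate 3 are given. Many marker calls were lost with fewer arrays: without late replicate 1 or without late replicate 3, 1 of the 3 GABAergic markers still passed, and none of the radial glia or microglial markers did. Gad1, Gad2, Slc1a3, Fabp7 and Csf1r kept their direction. Calls over all probe sets fell too, from 6104 to 3107 without late replicate 1 and to 2942 without late replicate 3. The call of Pdgfra, the oligodendrocyte lineage marker higher in late, was also lost without either of these arrays (limma adjusted p = 0.0606 and 0.0509). With no filter on dim probe sets, Gad1, Gad2, Slc1a3, Fabp7, Csf1r and Pdgfra did not pass (limma adjusted p between 0.0623 and 0.139). In sorted cells measured in bulk, fewer cells of a type and less RNA per cell cannot be told apart.

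Promoter sequences are shown for the 4 genes that differed between the groups, and for Nhlh2 as the near relative of Nhlh1 that did not pass. Each runs 5′ to 3′ on the gene's own strand, from 250 bases before to 50 bases after its start (RefSeq, GRCm38.p6), with matches to the E-box CANNTG in capitals. Both strands were searched, and CANNTG reads the same on each. The forms CAGCTG and also CATATG are their own complements. The form CAGATG was searched together with its complement.

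Atoh1: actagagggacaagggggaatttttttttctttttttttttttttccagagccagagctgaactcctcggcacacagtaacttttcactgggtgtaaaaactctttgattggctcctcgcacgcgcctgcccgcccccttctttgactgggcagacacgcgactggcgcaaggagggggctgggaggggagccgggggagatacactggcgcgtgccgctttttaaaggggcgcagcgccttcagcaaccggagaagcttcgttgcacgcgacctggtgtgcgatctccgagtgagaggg
Olig3: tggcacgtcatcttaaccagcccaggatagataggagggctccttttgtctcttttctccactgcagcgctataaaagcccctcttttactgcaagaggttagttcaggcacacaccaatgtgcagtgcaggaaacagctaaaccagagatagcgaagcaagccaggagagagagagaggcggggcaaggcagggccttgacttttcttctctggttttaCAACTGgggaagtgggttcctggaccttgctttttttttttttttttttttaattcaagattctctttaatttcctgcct
Nhlh1: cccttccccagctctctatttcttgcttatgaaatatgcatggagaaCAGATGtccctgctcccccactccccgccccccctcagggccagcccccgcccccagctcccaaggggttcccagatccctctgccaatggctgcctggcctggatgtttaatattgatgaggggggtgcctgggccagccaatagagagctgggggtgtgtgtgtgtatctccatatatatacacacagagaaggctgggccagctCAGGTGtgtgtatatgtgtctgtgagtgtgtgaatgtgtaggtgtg
Nhlh2: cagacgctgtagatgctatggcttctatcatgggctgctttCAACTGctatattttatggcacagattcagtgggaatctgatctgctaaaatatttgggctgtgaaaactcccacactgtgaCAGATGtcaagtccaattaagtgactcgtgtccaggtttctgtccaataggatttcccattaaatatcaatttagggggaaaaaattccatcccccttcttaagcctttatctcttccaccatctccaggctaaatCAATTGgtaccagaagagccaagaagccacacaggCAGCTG
Neurod1: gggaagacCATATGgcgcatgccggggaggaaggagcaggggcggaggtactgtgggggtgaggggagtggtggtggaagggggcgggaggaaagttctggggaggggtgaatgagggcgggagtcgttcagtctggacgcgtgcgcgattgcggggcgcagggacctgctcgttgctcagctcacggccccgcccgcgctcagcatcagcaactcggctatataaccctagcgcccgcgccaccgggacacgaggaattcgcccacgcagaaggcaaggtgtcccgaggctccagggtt

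The windows lie at chr6:64728875-64729174 on the plus strand for Atoh1, chr10:19356289-19356588 on the plus strand for Olig3 and chr1:172057547-172057846 on the minus strand for Nhlh1. Those of Nhlh2 and Neurod1 lie at chr3:102009895-102010194 on the plus strand and chr2:79456587-79456886 on the minus strand. No E-box letters occur in the Atoh1 window, 1 set occurs in Olig3 and in Neurod1, 2 sets in Nhlh1 and 4 sets in Nhlh2. Of 32851 RefSeq promoter windows of the same length, 72.3% hold at least 1 such match, 39.6% at least 2 and 6.49% at least 4. CAGATG occurs in the Nhlh1, Nhlh2 and Neurod2 windows and in 17.2% of all windows, CAGCTG in that of Nhlh2 and in 16.3%, and CATATG in those of Neurod1 and Neurod2 and in 3.91%. Among the other 4 genes, Neurod2 has 3 E-box matches, Neurod6 has 2, Neurog1 has 1 and Neurog2 has 0. E-box number therefore did not separate the genes that differed (0 to 2 matches) from those that did not pass or were too dim (0 to 4 matches). These counts describe letters in a short window, and no binding was measured.

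Of the 9 genes, 7 had a leading probe set (the brightest of the gene) bright enough to test, and 4 of these 7 differed between the groups, all higher in the late group: Atoh1, Olig3, Nhlh1 and Neurod1. Counted over probe sets, 5 of 9 tested passed. The test was limma on log2 signals, late minus early, with Benjamini-Hochberg adjustment over all 23471 tested probe sets and a threshold of 0.05. Over all tested genes 30.2% passed, 14% higher in late and 16.2% higher in early, and over all tested probe sets 26.0% passed, 12.6% being higher in late. The late and early signals did not overlap for the 5 probe sets that passed and overlapped for the other 4 tested. Whether they passed or not, the groups did not overlap for 46.9% of all tested probe sets and 52.4% of all tested genes. The 7 genes had a median log2 difference of 1.29, against 0.03 over 11064 tested genes. The counts and this median include Atoh1, through which the cells were marked, and Olig3, which entered the test only through the late group. They are therefore no test of whether these factors differ more often than other genes. Nhlh2, Neurod2 and Neurod6 did not pass, and Neurog1 and Neurog2 stood at or near background in both groups.

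**Figure D1:**
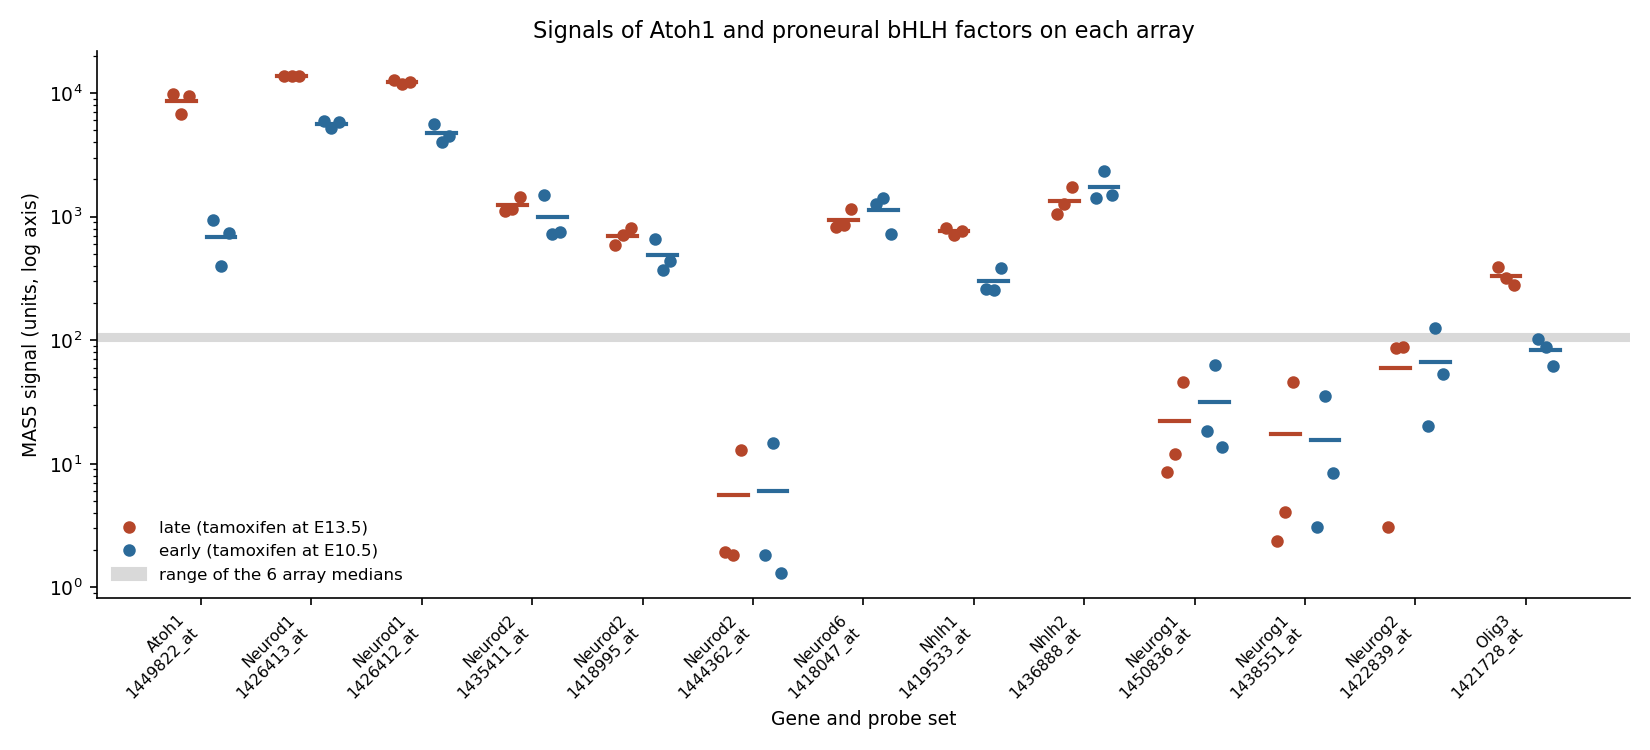
MAS5 signal (log axis) of the 13 probe sets on each array, late samples left and early samples right at each probe set. Points are arrays, bars are means of 3 arrays, and the grey band is the range of the 6 array medians (97.7 to 112 units). Late and early points separate for Atoh1, both Neurod1 probe sets, Nhlh1 and Olig3, and the Neurog1 and Neurog2 points lie at or below the band but for 1 early array.

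Atoh1, the factor on which the labelling rests, had signals of 9733, 6819 and 9372 units in late replicates 1, 2 and 3, against 936, 397 and 738 units in early replicates 1, 2 and 3. Every late array lay far above every early array, and early replicate 2 was the dimmest. The means were 8642 ± 1588 units in late and 690.1 ± 273 units in early (SD, n = 3 each), a log2 difference of 3.72 ± 0.36 (SE), or 13.1-fold (limma adjusted p = 0.00195). Ranked by size, this was number 51 of 11064 tested genes towards the late group. Early cells still had a clear Atoh1 signal, at percentiles 72.4 to 83.9 of their arrays, against 97.8 to 98.5 in late arrays. Because cells were marked through Atoh1 itself, in the late group nearer to collection, this difference is no independent result.

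Olig3, a progenitor factor of the dorsal hindbrain, had 389, 319 and 279 units in the late arrays, against 102, 87.6 and 61.7 units in the early arrays. The groups did not overlap. All 3 early signals lay below their array's median, where MAS5 signals are imprecise, so Olig3 entered the test only through the late group, where it was high. The log2 difference was 1.99 ± 0.26 (SE), with a 95% interval of 1.37 to 2.62, or 3.98-fold (limma adjusted p = 0.00399). When every signal under the median of its array was set to that median, the fold was 3.04 (limma adjusted p = 9.28e-04). This floor replaced all 3 early signals and so removed their own spread, and the smaller p is no support for the difference. With no filter on dim probe sets and no floor, Olig3 passed (limma adjusted p = 0.0252).

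Nhlh1, a bHLH factor of newly formed neurons, had 804, 713 and 769.7 units in the late arrays, against 262, 257 and 386 units in the early arrays. The late signals lay close together and above all early ones. The log2 difference was 1.36 ± 0.22 (SE; 95% interval 0.82 to 1.90), or 2.57-fold (limma adjusted p = 0.00806). Its relative Nhlh2, also a factor of early neuronal differentiation, had 1046, 1262 and 1732 units in the late arrays, against 1408, 2325 and 1508 units in the early arrays. The Nhlh2 groups overlapped, with late replicate 3 above 2 of the early arrays. Its log2 difference of -0.37 ± 0.29 (SE) did not pass (limma adjusted p = 0.391), and its 95% interval of -1.08 to 0.34 leaves room for a difference in either direction.

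Neurod1, which granule cells need to differentiate and survive, was bright in both groups and higher in late by both of its probe sets. The brighter one (1426413_at) had 13609.7, 13830.1 and 13815 units in the late arrays, against 5948, 5198 and 5802 units in the early arrays. The late signals lay close together, and no array of 1 group reached the other. The means were 13752 ± 123 units in late and 5649.6 ± 398 units in early (SD, n = 3 each), a log2 difference of 1.29 ± 0.16 (SE), or 2.44-fold (limma adjusted p = 0.00376). The other probe set (1426412_at) had 12846, 11807 and 12365 units in the late arrays, against 5636, 3984 and 4494 units in the early arrays. It gave a similar log2 difference of 1.41 ± 0.20 (SE; limma adjusted p = 0.00516). Early signals still lay at percentiles 95.7 to 97.5 of their arrays over the 2 probe sets. Without late replicate 3 and early replicate 3, which differed from the others in the sex of the embryos, neither Neurod1 probe set passed, at log2 differences of 1.30 and 1.38 (limma adjusted p = 0.0577 and 0.0708 with 2 arrays a group).

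Neurod2, a factor of maturing neurons that also acts in granule cells, had 1119, 1153 and 1433 units in the late arrays and 1485, 721 and 754 units in the early arrays by its brightest probe set (1435411_at). Early replicate 1 lay above all late arrays and the other 2 early arrays below them. The log2 difference of 0.40 ± 0.32 (SE; 95% interval -0.39 to 1.18) did not pass (limma adjusted p = 0.404). The probe set 1418995_at had 589, 709 and 803 units in late and 659, 370.1 and 435 units in early arrays, a log2 difference of 0.55 ± 0.27 (SE) that did not pass (limma adjusted p = 0.187). In it, too, early replicate 1 was the highest early array. The third Neurod2 probe set (1444362_at) stayed at 14.9 units or less on all 6 arrays and was not tested.

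Neurod6, a factor of differentiated neurons, had 821, 849.8 and 1151 units in the late arrays, against 1266, 1415 and 727 units in the early arrays. Early replicate 3 was the lowest of all 6, and the other early arrays were the highest. The log2 difference of -0.23 ± 0.31 (SE; 95% interval -0.98 to 0.52) did not pass (limma adjusted p = 0.616).

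The neurogenins, which specify neurons in other progenitor domains, gave no usable signal. Neurog1 had 8.54, 12.0 and 45.6 units in late and 18.3, 62.9 and 13.7 units in early arrays by its brighter probe set, and at most 45.6 units by the other. All of these lay below the array medians. Neurog2 had 3.06, 85.8 and 88.3 units in late and 20.2, 125 and 53.7 units in early arrays, with early replicate 2 alone above its array's median. None of these 3 probe sets passed the filter for testing, so a difference was not detectable at these signals.

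**Figure D2:**
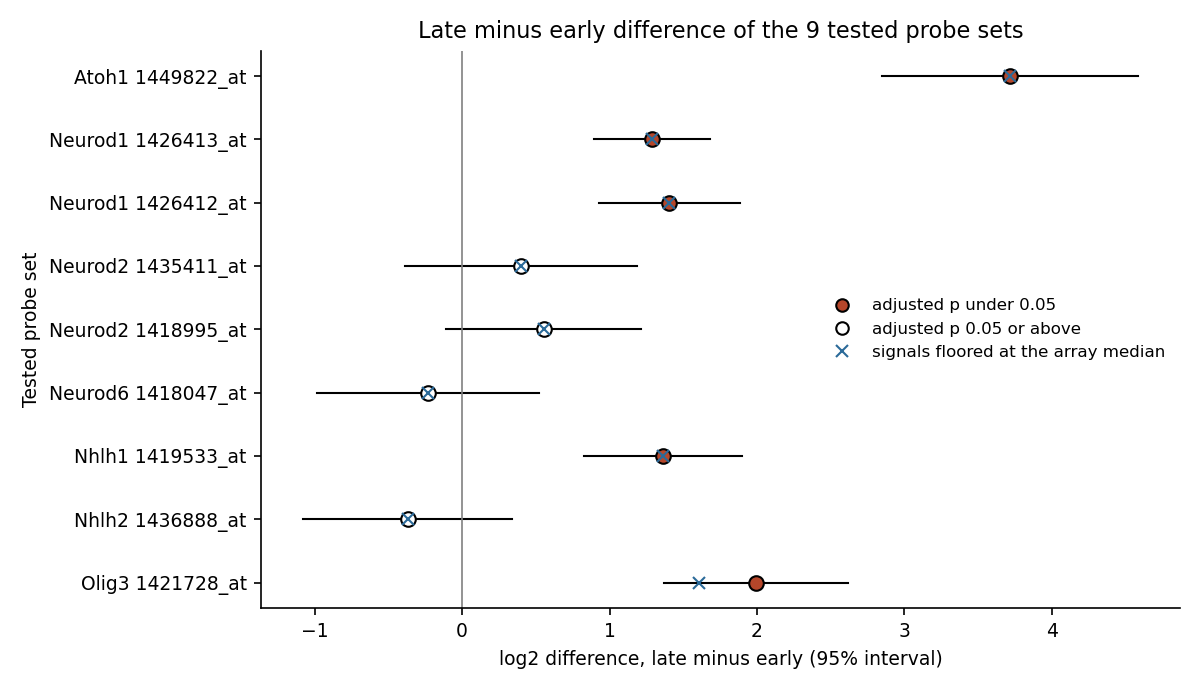
Log2 difference, late minus early, of the 9 tested probe sets with 95% intervals from limma. Filled points passed an adjusted p of 0.05, open points did not, and crosses give the difference with signals floored at the array median. Atoh1 (3.72), Neurod1 (1.29 and 1.41), Nhlh1 (1.36) and Olig3 (1.99) lie right of 0, and the floor moves Olig3 alone, to 1.60.

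Among the genes that passed, Atoh1, through which the cells were marked, differed by more than the others in these 6 arrays. Within an array, the ratio of 2 probe sets does not depend on how the array was scaled, although its level has no meaning because probes differ in brightness. The log2 ratio of Atoh1 to Neurod1 was -0.48, -1.02 and -0.56 in the late arrays, against -2.67, -3.71 and -2.97 in the early arrays, a difference of 2.43. The late ratios all lay above the early ones, so Atoh1 differed more between the groups than Neurod1 did. The same held for Atoh1 against Nhlh1 (difference 2.35). For Olig3, whose early signals lay below the array median, ratios were also taken with such signals set to that median, a treatment added after the data were seen. The difference was 1.72 for Atoh1 against Olig3, or 2.11 with the floor. It was 0.71 for Olig3 against Neurod1, or 0.32 with the floor, so the size of that difference rests on signals near background. The log2 ratio of Nhlh1 to Nhlh2 was -0.38, -0.82 and -1.17 in the late arrays, against -2.43, -3.18 and -1.97 in the early arrays, a difference of 1.73 between these near relatives. By contrast, the ratio of Nhlh1 to Neurod1 overlapped, with means of -4.18 ± 0.10 in late and -4.25 ± 0.31 in early (SD, n = 3 each; exact permutation p = 0.7). For the other 5 of these 6 ratios the exact two-sided permutation p was 0.1, the smallest that 3 arrays against 3 allow, and 0.12 after Benjamini-Hochberg adjustment over the 6. The 6 pairs were picked, and each holds a gene that passed. The groups did not overlap for 52.4% of all tested genes taken singly, and the share among other pairs was not measured. Separation of these ratios is therefore not particular to these pairs as far as was tested.

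**Figure D3:**
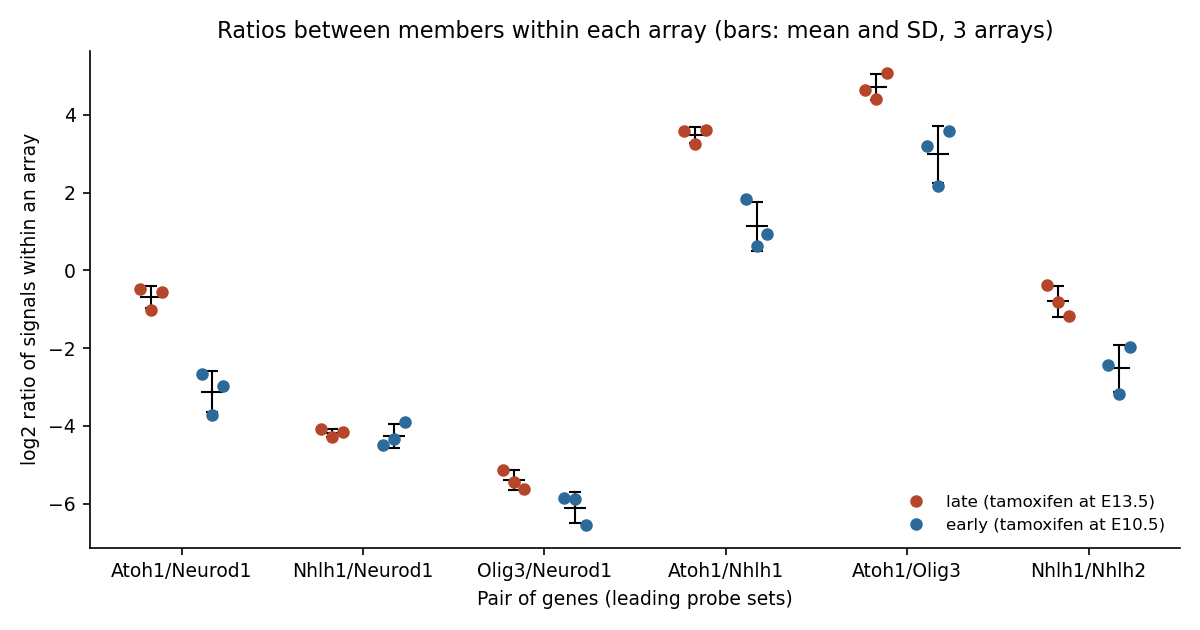
Log2 ratio of the signals of 2 genes within each array, for 6 pairs, with late arrays left and early arrays right. Points are arrays, and black bars give the mean and SD of 3 arrays. The groups separate for every pair but Nhlh1/Neurod1, where late averages -4.18 and early -4.25. The pairs were picked, and each holds a gene that passed.

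Other neural bHLH factors were mostly dim. Of 14 with a probe set of 1 symbol, 3 were tested, 2 were higher in early and none in late. Olig1, a factor of the oligodendrocyte lineage, stood at 164 ± 58.2 units in late and 2149 ± 292 units in early (SD, n = 3 each), a log2 difference of -3.77 (limma adjusted p = 0.00149). Olig2, which acts with it, stood at 135 ± 20.2 units in late and 410.1 ± 94.7 units in early, a log2 difference of -1.58 (limma adjusted p = 0.00624). Olig2 did not pass without both replicates 3 (limma adjusted p = 0.0582). These 2 relatives of Olig3 thus differed in the opposite direction to it.

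Of the 7 dimer partners and inhibitors of proneural factors, all tested, 3 were higher in late and 1 in early. Among the E proteins, Tcf4 averaged 18242 ± 374 units in late and 9966 ± 921 units in early, and Tcf12 13750.5 ± 361 units in late and 7209 ± 1636 units in early (SD, n = 3 each; log2 differences 0.88 and 0.96; limma adjusted p = 0.0139 and 0.0255). Tcf3 had a log2 difference of 1.19 that did not pass (limma adjusted p = 0.0635), although it did under 6 of 16 alternatives (0.0274 to 0.0497). Id proteins bind E proteins and keep them from DNA. Id4 was lower in late, at 675 ± 219 units against 14473 ± 2195 units in early, a log2 difference of -4.46, whereas Id2 was higher in late by 0.70 (limma adjusted p = 0.00112 and 0.0313). The calls of Tcf4, Tcf12 and Id2 were lost whenever any 1 late array was left out (limma adjusted p between 0.0596 and 0.125), and that of Id2 also without early replicate 3 (0.0613). Without both replicates 3, none of these 3 passed (limma adjusted p = 0.103, 0.143 and 0.201 for Tcf4, Tcf12 and Id2). Nor did they with the replicate block (limma adjusted p = 0.0661, 0.0741 and 0.108) or with no filter (0.087, 0.108 and 0.146).

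Of 7 Hes and Hey repressors, which counter proneural genes downstream of Notch, 3 were tested and 2 were higher in late. Hey1 averaged 4909 ± 769 units in late and 1195 ± 84.3 units in early, and Hes6, a relative that promotes neurogenesis, 4987 ± 272 units in late and 1456 ± 308 units in early (SD, n = 3 each; log2 differences 2.03 and 1.80; limma adjusted p = 0.00193 and 0.00314). Hes5, a Notch effector of progenitors, averaged 165 ± 85.3 units in late and 330.4 ± 134 units in early and did not pass (limma adjusted p = 0.144).

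Of 8 genes known to act on Atoh1 or its protein, 6 were tested and 1 was higher in late. This was Rbpj, the DNA-binding partner of Notch, which binds the Atoh1 locus, with a log2 difference of 0.83 (limma adjusted p = 0.023). It no longer passed when any 1 late array was dropped (limma adjusted p = 0.057, 0.0838 and 0.0997 on dropping late replicate 1, 2 or 3), or without both replicates 3 (0.133). Rbpj also missed the threshold with the replicate block or no filter (limma adjusted p = 0.0773 and 0.112). Zic1, a zinc finger factor of the rhombic lip, was bright in both groups at 26865 ± 1280.4 units in late and 17921 ± 2622 units in early (limma adjusted p = 0.0608). Huwe1, a ubiquitin ligase that degrades Atoh1, had a log2 difference of 0.71 that did not pass (limma adjusted p = 0.114). Hic1, a repressor of Atoh1, had 42.2, 106 and 29.4 units in late and 165, 188 and 129 units in early arrays, with no overlap, no late array above its median and a log2 difference of -1.64 that did not pass (limma adjusted p = 0.0516). With the replicate block, quantile normalization or median centring, 1 gene of this list was higher in early. Zic1 passed under 5 alternatives (limma adjusted p between 0.0054 and 0.0483).

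Of 6 genes known in mouse as targets of Atoh1, 3 were tested and 2 were higher in late, with a median log2 difference of 2.29. Gli2, an effector of hedgehog signalling, averaged 3603 ± 452 units in late and 255 ± 134 units in early, and Barhl1, a homeobox factor of granule cell precursors, 2104 ± 385 units in late and 434 ± 102 units in early (SD, n = 3 each; limma adjusted p = 0.00248 and 0.00265). Robo3, a receptor for axon crossing at the midline, had a log2 difference of 1.06 that did not pass (limma adjusted p = 0.0724), although it did under 2 alternatives (0.0435 and 0.0493). Gfi1 and Pou4f3, which Atoh1 switches on in hair cells, lay below the array median on all 6 arrays, as did Barhl2.

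Of 13 cofactors and differentiation genes downstream of proneural factors, all tested, 6 were higher in late and 2 in early, with a median log2 difference of 1.17. Insm1, a zinc finger factor of newly committed neurons, averaged 13223 ± 1023 units in late and 2476 ± 1313 units in early (SD, n = 3 each; limma adjusted p = 0.0059). Gadd45g and Btg2, antiproliferative genes that proneural factors induce, had log2 differences of 1.69 and 1.40 (limma adjusted p = 0.00842 and 0.0245). Myt1l, a repressor of non-neuronal genes in neurons, had a log2 difference of -2.07, at 2973 ± 339 units in late against 12544 ± 2130.0 units in early (limma adjusted p = 0.00207). Btg2 no longer passed on dropping late replicate 1, 2 or 3 (limma adjusted p = 0.0888, 0.0533 and 0.0907) or early replicate 1 or 3 (0.0597 and 0.0517). Its call was also lost with the replicate block or no filter (limma adjusted p = 0.0748 and 0.0904). Insm1, Gadd45g and Btg2 did not pass without both replicates 3 (limma adjusted p = 0.059, 0.0584 and 0.158).

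The 4 genes that passed were higher in late, as were markers of cycling cells, whereas most neuron markers were lower. All 9 tested proliferation markers were higher in late, with a median log2 difference of 2.82, led by Mki67 (3.47), Cdk1 (3.41), Mcm2 (3.13) and Ccnd2 (2.82). Of 11 tested markers of postmitotic neurons, none was higher in late and 6 were higher in early, with a median of -1.06, led by Nefl (-1.64), Elavl4 (-1.59), Stmn2 (-1.24) and Tubb3 (-1.16). Rbfox3, a marker of mature neurons, lay the other way, at 3539.8 ± 336 units in late and 2192.7 ± 455 units in early (SD, n = 3 each), with no overlap and a log2 difference of 0.71 that did not pass (limma adjusted p = 0.0607). With median centring 1 neuron marker was higher in late. Tubb3 no longer passed on dropping late replicate 1 or 2 (limma adjusted p = 0.0762 and 0.0806) or early replicate 1 (0.0512). Its call was also lost with the replicate block, no filter or array weights (limma adjusted p = 0.065, 0.0896 and 0.0538). Elavl4, Stmn2 and Tubb3 did not pass without both replicates 3 (limma adjusted p between 0.0515 and 0.0602), and 1 of the 6 neuron markers then did. Summed signals of the proliferation list were 64558 to 71532 units in late and 8911 to 11221 units in early arrays, and those of the neuron list 54466 to 61899 units in late and 107250.4 to 114305 units in early arrays. The part of cell cycle state in the differences of the bHLH factors was not tested. Of 10 tested rhombic lip derivative markers, 5 were higher in late and 4 in early. Meis2 (-3.58) and Lhx9 (-3.44) were lower in late and Pax6 (2.87) and Barhl1 (2.29) higher on the log2 scale.

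**Figure D4:**
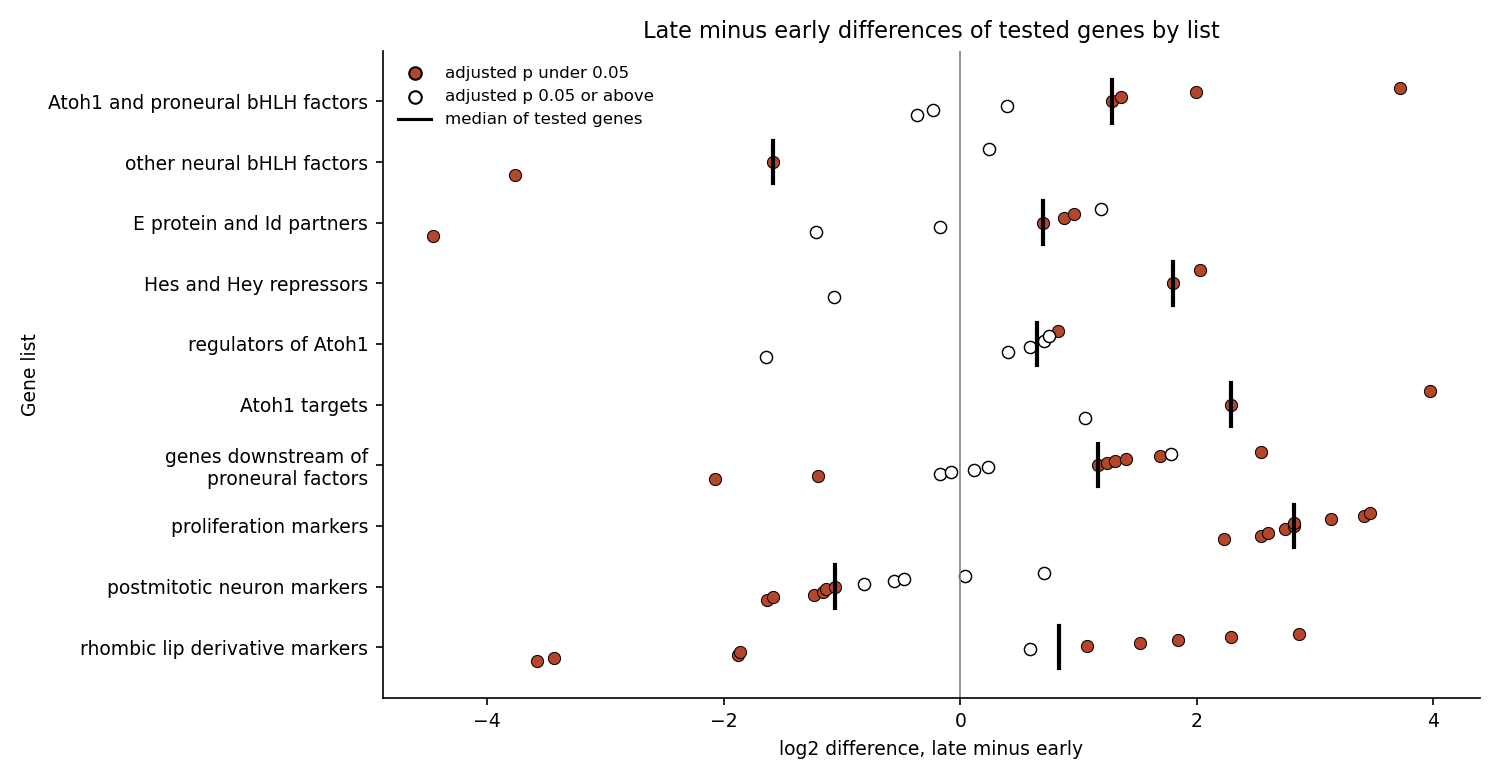
Log2 difference, late minus early, of the leading probe set of each tested gene, by list, with the bHLH factors under study in the top row. Filled points passed an adjusted p of 0.05, open points did not, and the black bar is the list's median. All 9 proliferation markers lie right of 0 (median 2.82), and 9 of 11 postmitotic neuron markers lie left of it (median -1.06).

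The genes whose log2 signals over the 6 arrays were most like those of Atoh1 were Pole3, Ly6e, Ddah2, Lsm14a and Mcm10 (Pearson r from 0.998 to 0.999 among 10643 genes searched). With 6 arrays in 2 groups a high r is common: 12.6% of the genes searched had an r above 0.9 with Atoh1. For Neurod1 the nearest were Ckap2l, Arhgap11a and Kif20a, all known for roles in mitosis, and for Nhlh1 they were Mad2l1, Pold2 and Sav1. For Olig3 they were Dennd11, Rdh5 and Ccdc8. Among the genes that did not pass, Neurod2 was nearest to Tet1, Gpr108 and Kdm2a, Neurod6 to Dusp12, Tcp11l2 and Pou3f3, and Nhlh2 to Ccl8, Pigv and Pygo1. Only 0.357% to 1.05% of the genes searched had an r above 0.9 with these 3.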

How the data were processed

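EGFP-positive cells of 6 samples (3 late, 3 early) were each measured on 1 array. The authors deposited 1 intensity per probe set and array, per the file headers, and MAS5 is named in the submitters' processing notes. Its version is not given in the sources used here, nor are detection calls. The values of every array average 500 once the lowest and highest 2% are dropped, a scaling step, so total RNA per cell cannot be read. The number of arrays limits the precision.

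Gene names came from the platform annotation: of 45101 probe sets, 34958 named 1 symbol, 932 several and 9211 none; 64 controls were left out. Testing required a signal over the array's own median in 3 or more of the 6 arrays. Log2 intensities were fitted with limma 3.58.1 (R 4.3.3), late minus early, two-sided, over all 23471 tested probe sets, and the fit was tested on simulated data. A gene's leading probe set was its brightest. Named genes were all 9 members, up to 4 genes past the threshold with the largest difference in each list, and the genes with the highest Pearson r. Tcf3, Zic1, Hic1, Huwe1, Hes5, Robo3, Rbfox3 and Lhx1 were named after their values were seen. The members and lists were chosen with earlier results of these data known. Nothing says that shared replicate numbers pair the samples: the deviations of same-numbered arrays correlated at -0.03, -0.07 and -0.01, so no block was used. Alternatives were a replicate block, quantile normalization, median centring, an offset of 16 units, a floor at the array median, a 70th percentile filter or none, an intensity trend with robust eBayes, array weights, a threshold of 0.01, mean probe sets and leaving out arrays, over the probe sets tested with all 6. Promoters came from RefSeq (GRCm38.p6), and all 9 members matched.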

Additional observations from a re-analysis of the deposited data

How the results depend on the processing

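The 4 genes and 5 probe sets above kept their direction under every alternative run, and kept their call except as follows. Without early replicate 3 and late replicate 3 together, 3 probe sets and 3 genes passed, since both Neurod1 probe sets missed the threshold. Under the filter at the 70th percentile Olig3 was not tested, which left 3 genes. Leaving out each array in turn gave log2 differences of 3.36 to 3.98 for Atoh1, 1.79 to 2.15 for Olig3, 1.26 to 1.55 for Nhlh1 and 1.23 to 1.32 for Neurod1 (1426413_at), with limma adjusted p at most 0.0411. With the replicate block 5 probe sets and 4 genes still passed. Nhlh2, Neurod2 and Neurod6 passed under no alternative, with the smallest adjusted p of 0.0555 for Neurod2. With no filter, limma adjusted p was 0.74, 0.911 and 0.788 for the Neurog1 and Neurog2 probe sets.

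The count over all probe sets (6104) depended more on the settings: 3593 with the replicate block, 2719 with no filter, 2435 at a threshold of 0.01 and 1504 without both replicates 3. Leaving out each array gave 2942 to 5849, with 3107, 3342 and 2942 without late replicates 1, 2 and 3. Nothing says that the shared replicate numbers pair the arrays, and no array deviated most like its own number. With 3 arrays a group this does not settle whether they are paired. Of 544 counts in the gene lists over 17 settings, 459 stayed within 1.5 times the count above. Without both replicates 3, Cldn5, an endothelial marker that did not pass, turned to a log2 difference of 0.11 (limma adjusted p = 0.949), and it reached -2.19 without late replicate 2. Quantile normalization and median centring moved the median log2 difference of tested probe sets by 0.01 and 0.06. Signals near the array median limit what can be seen for Olig3 in early arrays and for Neurog1 and Neurog2 in all.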
